A study of Mus musculus with 14 samples.

Results

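The miRNAs described here are 10 mature mouse miRNA names of the miR-200, miR-205 and miR-34 families, chosen as known suppressors of the epithelial-mesenchymal transition (EMT) and found by exact name among the 1695 names of the deposited count table. All 10 were listed. They were counted in small extracellular vesicles (sEVs), membrane-bound particles shed by cells, from neutrophils collected as Ly6G-positive bone marrow cells of wild-type (WT) female BALB/c mice. One group of 7 libraries came from cells kept for 48 h with DMSO, the solvent, and the other group of 7 from cells kept for 48 h with 10 µM 27HC (27-hydroxycholesterol), a product of cholesterol metabolism. No genetic change is named for either group, so the solvent and the mouse strain are what both share, and the labels do not say whether animals were pooled or whether libraries of a group came from separate mice, so that p-values measure only the spread between these libraries. Each library name carries a pair of consecutive numbers, whose meaning the labels do not give. The series title places the comparison in a study of EMT and stemness in breast cancer cells that receive such vesicles.

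EMT is the change by which epithelial cells lose contacts and gain motility. The miR-200 family represses the messenger RNAs of Zeb1 and Zeb2, transcription factors that switch off E-cadherin, and these factors in turn repress the miR-200 genes. miR-205 acts on the same Zeb messenger RNAs and marks stratified and mammary epithelium. The miR-34 family is induced by the tumour suppressor p53 and represses Snail, another EMT factor, and miR-34b and miR-34c are typical of ciliated cells and testis. In blood cells the miR-200 family and miR-205 are usually scarce, while miR-34a is made in many cell types including myeloid ones.

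A miRNA finds its targets mainly through its seed, bases 2 to 8 from the 5′ end, so the mature strands are shown first to let the names be grouped by what they can pair with. Of the 10 names, 9, all but miR-34c-5p, were matched by name to RefSeq mature sequences (GRCm38.p6), and the 8 strands that carry the families' known activity are printed 5′ to 3′ with the seed in capitals. The species prefix mmu- is left out after this list.
mmu-miR-200b-3p: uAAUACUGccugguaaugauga
mmu-miR-200c-3p: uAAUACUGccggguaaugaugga
mmu-miR-429-3p: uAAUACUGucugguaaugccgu
mmu-miR-200a-3p: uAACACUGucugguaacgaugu
mmu-miR-141-3p: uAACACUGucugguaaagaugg
mmu-miR-205-5p: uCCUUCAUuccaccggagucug
mmu-miR-34a-5p: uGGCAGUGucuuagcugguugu
mmu-miR-34b-5p: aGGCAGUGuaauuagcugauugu

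The 5 miR-200 strands fell into 2 seed groups that differ at 1 seed base. Among the 1679 mature names of the sequence table, the seed of miR-200b-3p, miR-200c-3p and miR-429-3p belonged to these 3 names alone, and that of miR-200a-3p and miR-141-3p to these 2 alone. miR-205-5p shared its seed with no other name in that table. The miR-34 seed was also carried by miR-449a-5p and miR-449c-5p, which are made in ciliated cells.

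Some of these strands are close enough that the rule for assigning reads matters, and that rule is not given in the sources used here. Counting positions from 1 at the 5′ end, miR-200a-3p and miR-141-3p differed by 2 substitutions, C17A and U22G, with miR-200a-3p as the reference. miR-200b-3p and miR-200c-3p differed by U11G and A22G with miR-200b-3p as the reference, and miR-200c-3p is 1 base longer. The counts of these pairs are therefore uncertain where reads were matched with mismatches. Trimming at the 3′ end alone would leave the differences at positions 17 and 11 unless it reached them.

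The hairpins lie in 5 places of the genome, given here by RefSeq on GRCm38.p6 with gene overlaps from GENCODE M21, and not by the submitters, whose processing notes name GRCm39. Mir200b (chr4:156055681-156055750), Mir200a (chr4:156054896-156054985) and Mir429 (chr4:156053905-156053987) span 1846 bases on the minus strand, within introns of the protein-coding gene Ttll10, and Mir429 also overlaps an exon of Gm13648, a non-coding gene. Mir200c (chr6:124718322-124718390) and Mir141 (chr6:124717914-124717985) span 477 bases on the minus strand, Mir200c in an intron of the antisense gene Gm15884 and Mir141 in an exon of Gm29008. Mir205 (chr1:193507463-193507530, minus strand) is in an exon of a long non-coding RNA gene. Mir34a (chr4:150068454-150068555, plus strand) is in an exon of Gm37795. Mir34b (chr9:51103562-51103645) and Mir34c (chr9:51103034-51103110) lie on the minus strand inside an intron of Btg4, which is read from the plus strand.

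The 14 libraries held 112914 to 871189 counts. On the first principal component of the tested miRNAs (36.5% of the variance), replicates 1 to 4 stood apart from replicates 5 to 7 in both groups. The labels give no reason for this split. Replicates 5 to 7 were mostly shallower, at 112914 to 252014 counts against 229324 to 871189 in replicates 1 to 4. Whether depth made the split was not tested. Levels are in counts per 1000000 counts (CPM) with TMM-scaled library sizes. A count of 0 allows up to 3 counts, which on this scale is 4.06 CPM in DMSO replicate 3, the deepest library, and at most 24.4 CPM, in 27HC replicate 7, and this limit covers counting error only. As a check of the label, miR-223-3p, the best known neutrophil miRNA, ranked 2 of 1695 by mean CPM, at 73515 CPM or more in every library.

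The 10 names together were scarce. They held 3615 of 3925790 counts (0.0921%), and miR-34a-5p alone held 54.8% of those 3615. In DMSO libraries they took 0.0698% of counts at the lowest, 0.0956% at the median and 0.107% at the highest. In 27HC libraries these shares were 0.0715%, 0.0945% and 0.126%. The ranges overlapped, and 2 of the 7 27HC libraries, replicates 1 and 4, lay above the highest DMSO library.

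Detection, meaning at least 1 count, split the 10 names in 2. Found in all 14 libraries were miR-34a-5p, miR-141-3p, miR-200c-3p, miR-205-5p, miR-200a-3p, miR-200b-3p and miR-429-3p. The other 3 were found in few: miR-34c-5p in 6 libraries, miR-200b-5p in 5 and miR-34b-5p in 2. Each library held 7 to 9 of the 10 names, with a median of 8 in both groups. Brought by calculation to the depth of the shallowest library, the expected number was 7.23 ± 0.682 in DMSO and 7.52 ± 0.832 in 27HC libraries (SD, n = 7).

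**Figure D1:**
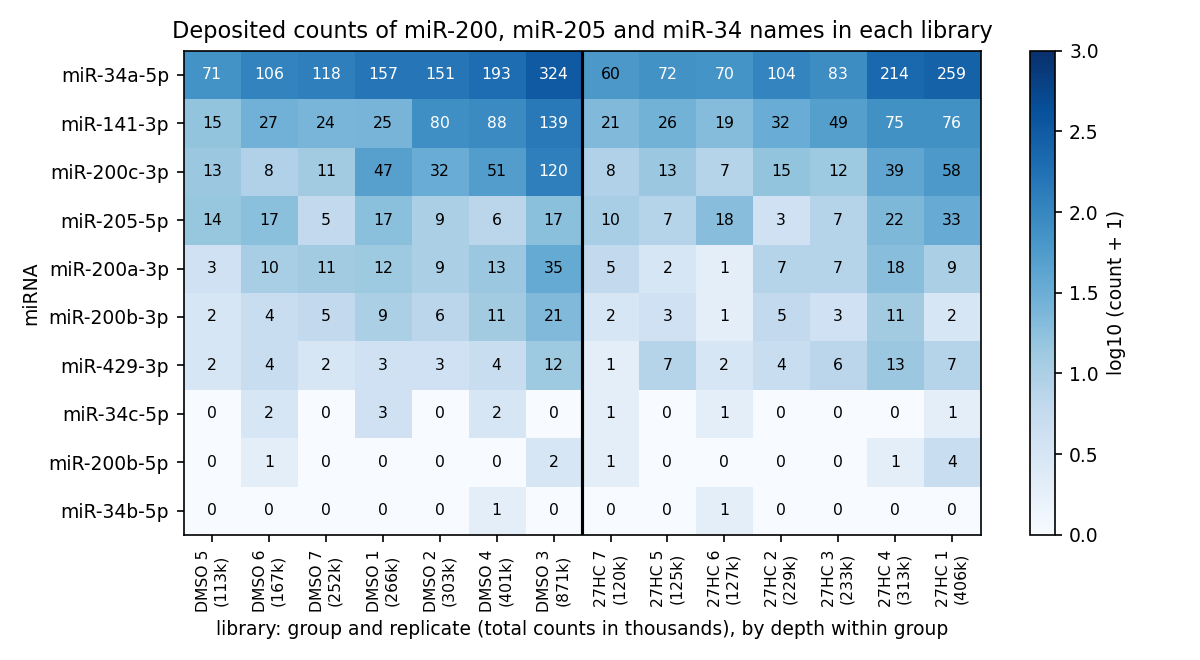
Deposited counts of the 10 names (rows, by mean CPM) in each of the 14 libraries (columns, by depth within DMSO and 27HC, with the total, k for kilo, under each name), shaded by log10 of the count plus 1. The upper 7 rows have counts in every library, whereas the lower 3 rows are mostly at 0 and never above 4.

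By level, miR-34a-5p stood first in all 14 libraries, at a mean of 527.5 ± 80.4 CPM (SD, n = 14), rank 94 of 1695. Its lowest library lay above the highest library of miR-141-3p, which followed at 176 ± 57.8 CPM. miR-200c-3p came next at 98.6 ± 45.1 CPM, below miR-141-3p in 13 of the 14 libraries although their ranges overlapped. miR-205-5p at 59.0 ± 38.7 CPM was below miR-200c-3p in 10 libraries, and miR-200a-3p at 34.6 ± 14.3 CPM was below miR-205-5p in 8, so that neither neighbour pair was separated by its spread. miR-200b-3p (20.9 ± 9.02 CPM) and miR-429-3p (19.9 ± 13.7 CPM) had no fixed order, miR-200b-3p being the higher in 7 libraries. These strands are 22 or 23 bases long. Whether length, or differences in how well each strand is ligated, shaped the order was not tested.

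**Figure D2:**
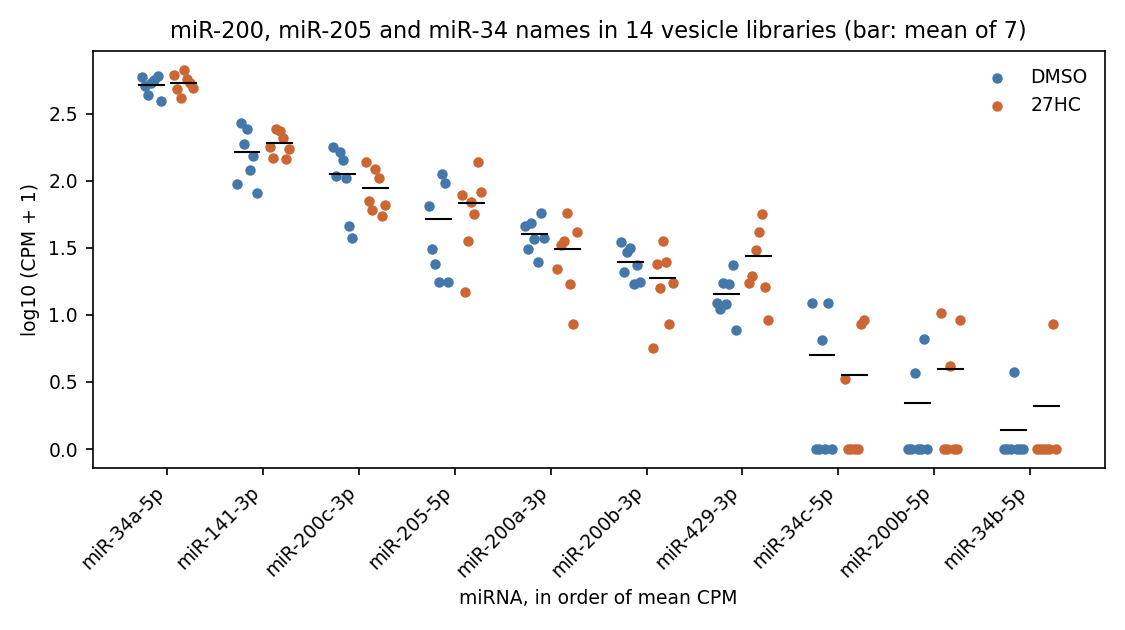
Level of each name as log10 (CPM + 1), 1 point per library, DMSO in blue and 27HC in orange, with bars at the mean CPM of 7 libraries. DMSO and 27HC points overlap for every name, and miR-34a-5p is the tightest and highest.

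The filter on low counts kept a name with at 41.2 counts per 1000000 or more, which is 10 counts in a library of median depth, in at least 7 libraries. It passed 239 of the 1695 names and 4 of the 10 described here. miR-205-5p was the least abundant to pass, with 8 libraries above that level, and miR-200a-3p was the nearest below it, with 5. With edgeR's quasi-likelihood test of 27HC against DMSO, 0 of these 4 had an adjusted p under 0.05, where 12.6% of all tested names did (30 of 239). At an unadjusted p under 0.05 the count was also 0 of 4, against 22.2% of all tested names, and DESeq2 and limma-voom each called 0 of 4. No tested member had groups that did not overlap, against 5.44% of all tested names. The differences below are those of vesicle RNA, in which fewer vesicles that carry a miRNA and fewer copies per vesicle cannot be told apart.

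miR-141-3p, from the chromosome 6 pair, had the AACACUG seed. In DMSO libraries it stood at 79.9 CPM at the lowest, 152 CPM at the median and 267 CPM at the highest. With 27HC these values were 144, 178 and 243 CPM. The 27HC libraries all lay inside the range of the DMSO libraries and were less spread, 189 ± 39.8 CPM against 163 ± 72.5 CPM (SD, n = 7). The log2 fold change was 0.20 (SE 0.27, 95% interval −0.37 to 0.78), with an edgeR adjusted p of 0.761. The interval allows anything from 0.776-fold to 1.71-fold.

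miR-200c-3p, its neighbour with the AAUACUG seed, ran from 36.6 CPM over a median of 107 CPM to 177 CPM in DMSO libraries. In 27HC libraries it ran from 53.1 over 69.0 to 136 CPM, again inside the DMSO range. Group means were 110 ± 54.5 and 87.0 ± 33.3 CPM (SD, n = 7). The fit put the change at −0.33 on the log2 scale (SE 0.35, 95% interval −1.08 to 0.42; adjusted p by edgeR 0.670), and at −0.12 without DMSO replicate 1, the highest library.

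The 2 strands of the chromosome 6 pair are cut from hairpins 336 bases apart on 1 strand, yet their counts were not in a fixed ratio. Counts of miR-141-3p divided by counts of miR-200c-3p ranged from 0.532 in DMSO replicate 1 to 4.08 in 27HC replicate 3, with medians of 1.73 in DMSO and 2.13 in 27HC libraries. miR-141-3p had the larger count in 6 of 7 DMSO and in all 7 27HC libraries. Counts of miR-200c-3p were as low as 7, in 27HC replicate 6, so the ratio also carries counting error. Across the 14 libraries the log2 CPM of both names had a Pearson r of 0.30 and a Spearman rho of 0.31. With the mean of each replicate set removed, the Pearson r was 0.032. These values are given as a description, since the points share depth and the split of replicate numbers.

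The 3 strands of the chromosome 4 trio did not pass the filter, so their values come from a fit without it, in which the median log2 fold change over all 1695 names was −0.19 and 1.59% of names were called. Among the 10 names that fit called 0, and 0 had an unadjusted p under 0.05. miR-200a-3p had 3 to 35 counts in DMSO libraries (median 11) and 1 to 18 in 27HC libraries (median 7). DMSO libraries averaged 39.3 ± 11.1 CPM and 27HC libraries 29.8 ± 16.4 CPM (SD, n = 7), and 3 of the 7 27HC libraries lay under the lowest DMSO library while 1 lay above the highest. On the log2 scale the change was −0.45 with an SE of 0.48, and edgeR gave an adjusted p of 0.685.

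miR-200b-3p, from the same locus, had 2 to 21 counts in DMSO libraries (median 6) and 1 to 11 in 27HC libraries (median 3). DMSO libraries averaged 24.0 ± 7.02 CPM and 27HC libraries 17.8 ± 10.2 CPM (SD, n = 7), with 3 of the 7 27HC libraries under the DMSO range and 1 above it. The change was −0.55 on the log2 scale with an SE of 0.59, again at an adjusted p of 0.685 by edgeR.

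miR-429-3p, the third of the trio, had 2 to 12 counts in DMSO libraries (median 3) and 1 to 13 in 27HC libraries (median 6). Here 3 of the 7 27HC libraries lay above the highest DMSO library and none under the lowest, at 26.3 ± 16.8 CPM against 13.4 ± 5.25 CPM (SD, n = 7). The log2 fold change of 0.87 (SE 0.62) had an edgeR adjusted p of 0.579. The point estimates within the trio thus had different signs, and none was distinguishable from 0 at these counts.

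Summed over strands, the chromosome 6 pair supplied 1130 of the 1427 counts of the 5 miR-200 3p strands (79.2%), and the larger part in all 14 libraries. That share was 66.0% to 86.2% among DMSO and 73.1% to 88.2% among 27HC libraries. The 5 strands summed to 350 ± 105 CPM with DMSO and 350.3 ± 86.1 CPM with 27HC (SD, n = 7). Grouped by seed, the AAUACUG strands reached 148 ± 59.9 CPM with DMSO and 131 ± 47.9 CPM with 27HC, and the AACACUG strands to 203 ± 71.7 and 219 ± 50.4 CPM (SD, n = 7), with every 27HC library inside the DMSO range for both seeds.

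miR-205-5p had the widest span between lowest and highest library of the 7 names found everywhere, at 9.90-fold. DMSO libraries stood at 16.6 CPM at the lowest, 30.0 CPM at the median and 111 CPM at the highest. The 27HC libraries stood at 13.8, 69.0 and 137 CPM. These groups overlapped, with 5 of the 7 27HC libraries inside the DMSO range, on counts of 5 to 17 in DMSO and 3 to 33 in 27HC libraries. The means were 51.1 ± 39.6 and 67.0 ± 39.1 CPM (SD, n = 7), and the fitted change was 0.48 on the log2 scale (SE 0.51, 95% interval −0.60 to 1.57; adjusted p by edgeR 0.670). The interval spans 0.658-fold to 2.97-fold, so this name's response was the least well measured of the 4 tested.

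miR-34a-5p, the only abundant miR-34 strand, was the steadiest. Its DMSO libraries stood at 393 CPM at the lowest, 533 CPM at the median and 598 CPM at the highest, and the 27HC libraries at 411, 531 and 671 CPM. The coefficient of variation was 15.1% in DMSO and 16.3% in 27HC libraries, and the highest and lowest of all 14 libraries were 1.71-fold apart. The means were 518 ± 78.0 and 537 ± 87.6 CPM (SD, n = 7). The fitted change was 0.060 on the log2 scale (SE 0.14, 95% interval −0.24 to 0.36; adjusted p by edgeR 0.869). This interval, 0.848-fold to 1.28-fold, bounds the response of miR-34a-5p more tightly than that of any other tested member.

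miR-34b-5p and miR-34c-5p, which are made from 1 locus on chromosome 9, were near or under the limit of detection. miR-34b-5p had 1 count in DMSO replicate 4, 1 count in 27HC replicate 6 and 0 in the other 12 libraries. miR-34c-5p had 7 counts over 3 DMSO libraries and 3 counts over 3 27HC libraries. In 8 libraries miR-34c-5p was at 0, and no difference between the groups was detectable at this depth.

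**Figure D3:**
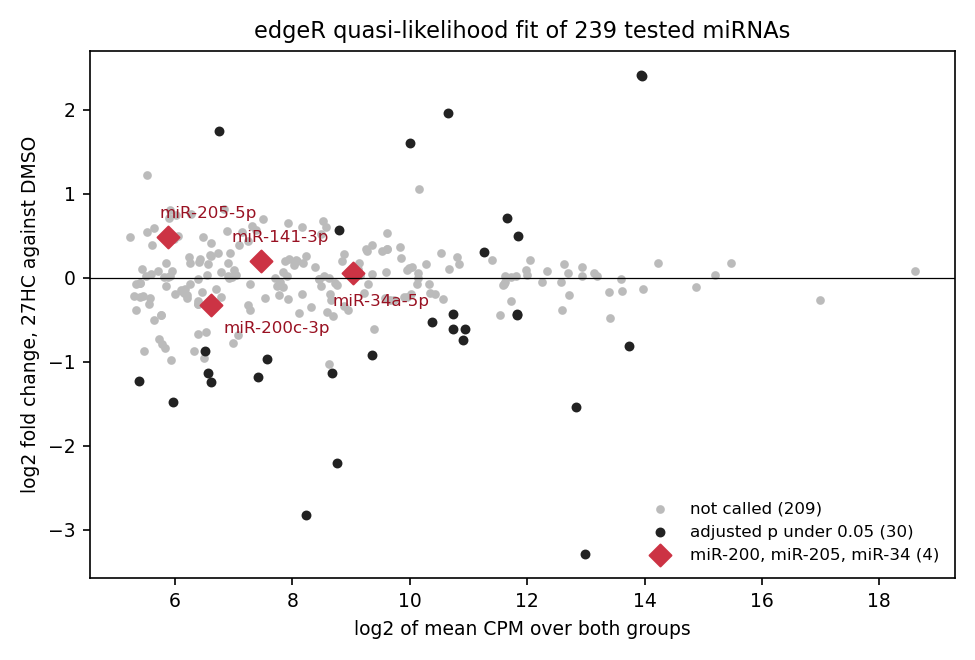
Log2 fold change of 27HC against DMSO (vertical axis) against log2 of mean CPM (horizontal axis) for the 239 tested miRNAs, with the 30 at an adjusted p under 0.05 in black and the 4 tested miR-200, miR-205 and miR-34 names as red diamonds. The red diamonds lie between −0.33 and 0.48 among the grey points that were not called.

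For 5 of the 8 hairpins with both strands in the table, the minor strand held few counts. The 3p strand held 99.5% of the counts of Mir200c (434 of 436, 95% Clopper-Pearson interval 98.4% to 99.9%), 99.0% of those of Mir141 (696 of 703) and 98.6% of those of Mir200a. The 5p strand held 99.95% of the counts of Mir34a (1982 of 1983) and 99.5% of those of Mir205 (185 of 186). Mir200b gave the largest minor share among the miR-200 hairpins: miR-200b-5p had 9 of 94 counts, so that the 3p strand held 90.4% (95% Clopper-Pearson interval 82.6% to 95.5%). Those 9 counts were 3 in 2 DMSO libraries and 6 in 3 27HC libraries, 4 of them in 27HC replicate 1. Pooled over libraries, Mir34c differed from Mir34a: miR-34c-5p had 10 counts and miR-34c-3p had 8, which puts the 5p share at 55.6% (95% Clopper-Pearson interval 30.8% to 78.5%). All counts of miR-34c-3p came from replicates 5 to 7, and it was at 0 in the 8 libraries of replicates 1 to 4. miR-34c-5p had counts in both sets, so the pooled share of Mir34c describes neither set alone. Mir34b had 2 counts of each strand. These intervals pool libraries and cover counting error only.

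The other names matched to the miR-34 seed had few counts. miR-449a-5p had 18 counts in 9 libraries, 6 of them DMSO and 3 27HC, at 5.62 ± 5.24 and 4.18 ± 5.32 CPM (SD, n = 7). miR-449c-5p had 1 count in all libraries together. miR-449b, a family member not matched to a sequence here, also had 1.

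Levels of the 4 tested names were also read within the replicate numbers that stood apart, as a description with no test, since that split was found in these same libraries. miR-200c-3p averaged 122 ± 41.7 CPM in replicates 1 to 4 (SD, n = 8 libraries) and 67.8 ± 29.1 CPM in replicates 5 to 7 (SD, n = 6 libraries). For miR-141-3p these values were 199.5 ± 58.6 and 145.6 ± 43.5 CPM. miR-205-5p went the other way, with 41.1 ± 25.3 CPM in replicates 1 to 4 and 83.0 ± 42.4 CPM in replicates 5 to 7. miR-34a-5p stood at 529.5 ± 89.2 and 525 ± 75.1 CPM. The sets also differed in depth, and what depth contributed to these levels was not tested.

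Within those sets no 27HC difference of a tested name was called. The split was found in these same libraries, so the p-values of this paragraph are given as a description only. In replicates 1 to 4 alone, the log2 fold changes were −0.50 (SE 0.31) for miR-200c-3p, 0.076 (SE 0.31) for miR-141-3p and 0.15 (SE 0.19) for miR-34a-5p, with a lowest edgeR adjusted p of 0.325. In replicates 5 to 7 alone they were 0.60 (SE 0.35) for miR-141-3p, 0.44 (SE 0.68) for miR-205-5p and 0.046 (SE 0.23) for miR-34a-5p, with a lowest edgeR adjusted p of 0.502. miR-205-5p in the first set and miR-200c-3p in the second did not pass the filter there. The difference of the 27HC effect, replicates 5 to 7 minus replicates 1 to 4, was 0.91 for miR-200c-3p (SE 0.59), 0.57 for miR-141-3p (SE 0.50), −0.28 for miR-205-5p (SE 0.90) and −0.036 for miR-34a-5p (SE 0.29). An edgeR interaction term gave adjusted p-values of 0.525, 0.645, 0.916 and 0.966 for these differences. That term called 0 of 239 names, with 24 at an unadjusted p under 0.05, and limma-voom also called 0.

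**Figure D4:**
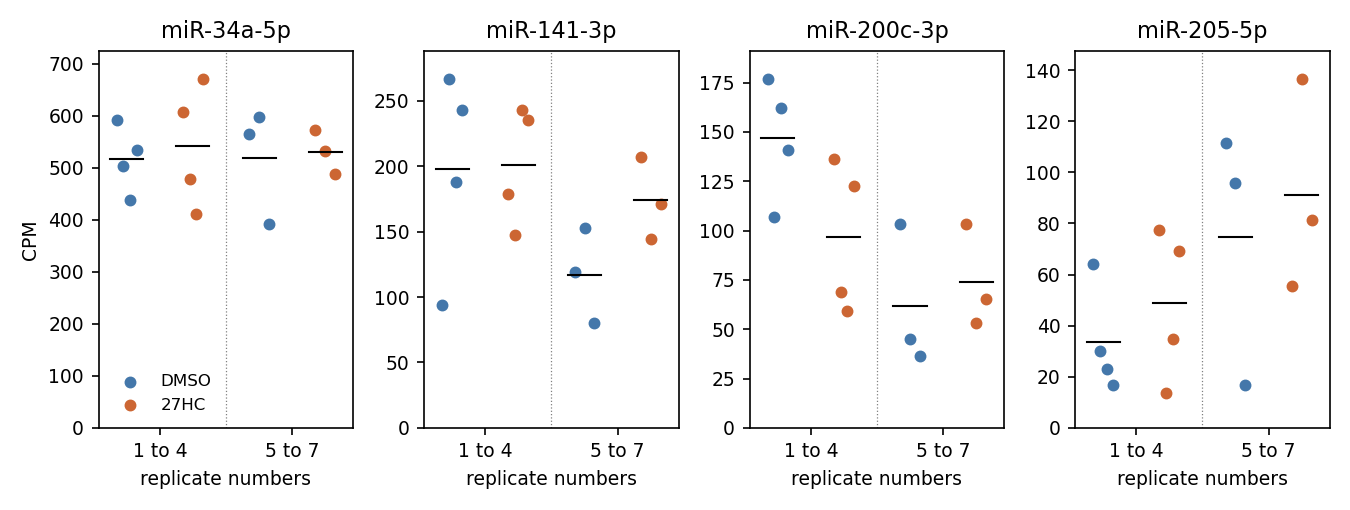
CPM of the 4 tested names by replicate numbers 1 to 4 and 5 to 7, DMSO in blue and 27HC in orange, 1 point per library, with bars at the mean of each set and treatment. The mean bars of miR-200c-3p fall and those of miR-205-5p rise from the left to the right set, while those of miR-34a-5p stay level. The left and right sets also differ in depth.

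The names whose log2 CPM followed each tested member most closely over the 14 libraries were taken at a Pearson r of at least 0.7. For miR-200c-3p these were miR-19b-3p (r = 0.84), miR-365-3p (0.84) and miR-15b-5p (0.82), and with the mean of each replicate set removed the values were 0.74, 0.75 and 0.69. For miR-141-3p they were miR-185-5p (0.85), miR-148a-3p (0.73) and miR-148b-3p (0.71), with 0.82, 0.65 and 0.63 once set means were removed. For miR-205-5p they were miR-152-3p (0.74) and miR-6374 (0.71), with 0.64 and 0.59 once set means were removed. No name reached 0.7 with miR-34a-5p, whose closest was miR-1b-5p (0.66), but miR-205-5p went from 0.62 to 0.72 with it once set means were removed. All points share library depth and preparation, and the highest values were picked from 238 names.

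Other EMT-linked miRNAs were read from the same fit. Of 15 further EMT-suppressing names, 8 passed the filter, of which 1 was higher and 0 were lower with 27HC, and their median log2 fold change was 0.12, beside 0.010 over all 239. The higher 1 was miR-7a-5p, a repressor of the EGF receptor, which averaged 359 ± 91.3 CPM with DMSO and 529.6 ± 42.0 CPM with 27HC (SD, n = 7). Its change was 0.57 on the log2 scale with an SE of 0.16, and edgeR gave an adjusted p of 0.0216. The next in size were miR-192-5p at −0.38 (SE 0.25) and miR-1a-3p, a muscle miRNA, at 0.32 (SE 0.49), which were not called.

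Of 11 EMT-promoting names, 10 passed the filter, with 1 higher, 2 lower and a median of −0.013. The higher 1 was miR-27a-3p, at 0.31 (SE 0.093, edgeR adjusted p 0.0369). The lower were miR-155-5p, a miRNA of immune activation, at −1.48 (SE 0.40, edgeR adjusted p 0.0216), and miR-103-3p, which represses Dicer, at −0.61 (SE 0.14, edgeR adjusted p 0.00906). miR-9-5p, which represses E-cadherin, was at 0.65 (SE 0.38) and was not called. Over all tested names 3.77% were called higher and 8.79% lower, and the lists are too short to read their counts against these shares.

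**Figure D5:**
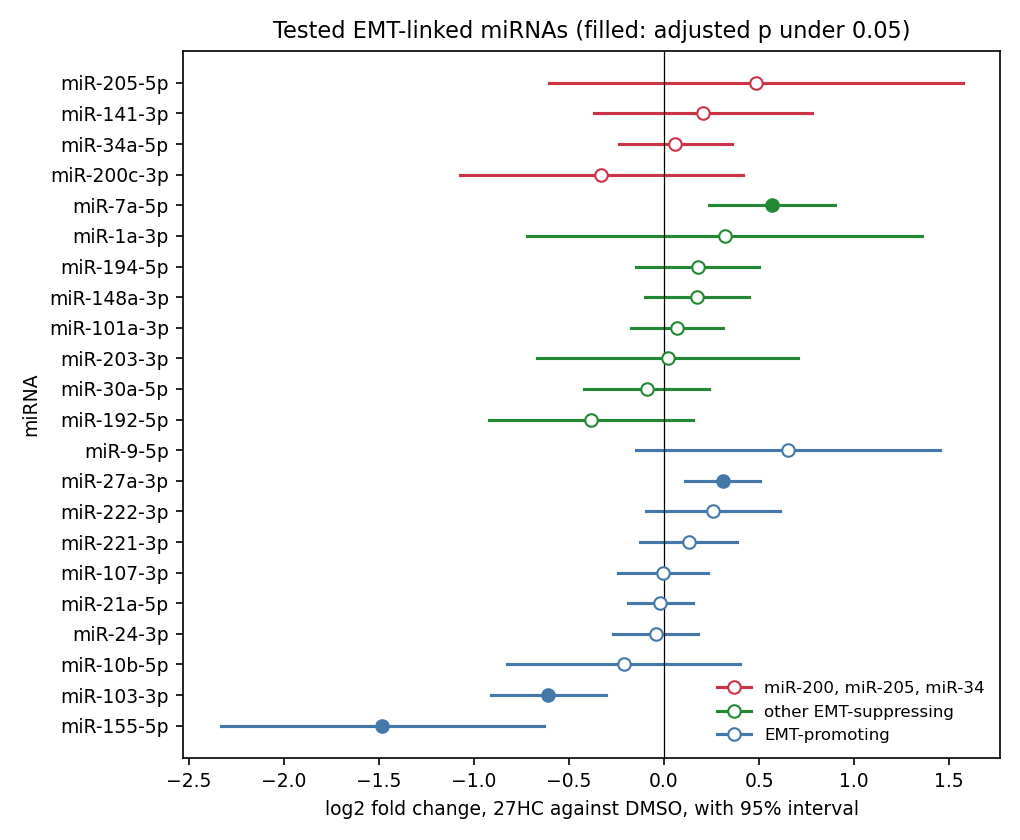
Log2 fold change of 27HC against DMSO with its 95% interval for the tested miR-200, miR-205 and miR-34 names (red), other EMT-suppressing names (green) and EMT-promoting names (blue), filled where the adjusted p was under 0.05. All 4 red intervals cross 0, and miR-34a-5p has the narrowest of them.

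Because miR-200 and miR-205 are epithelial miRNAs, 8 other miRNAs of epithelium were read as well. Their summed level was 598 to 973 CPM in DMSO and 677 to 960 CPM in 27HC libraries. Most of it came from miR-194-5p (414 to 738 CPM) and miR-192-5p (77.5 to 261 CPM), and miR-203-3p was found in all 14 libraries. miR-31-5p had 52 counts in 12 libraries and miR-375-3p had 16 in 8. miR-182-5p, miR-183-5p and miR-96-5p had 7, 4 and 4 counts in 4, 3 and 1 libraries. This list shares miR-203-3p, miR-375-3p, miR-31-5p, miR-192-5p and miR-194-5p with the EMT-suppressing names and miR-183-5p with the EMT-promoting names. Whether other cells or the medium supplied part of the miR-200 and miR-205 counts was not tested. Of the other marker lists, 2 of 4 tested neutrophil and myeloid names were lower (miR-142a-3p and miR-146a-5p), 2 of 3 lymphoid names were lower (miR-150-5p and miR-155-5p), and 0 of 1 erythroid and 0 of 3 stromal and endothelial names were called. Over all tested names 8.79% were called lower and 12.6% in either direction, and these lists are too short to be read against those shares. The call of miR-155-5p is the same as that given among the EMT-promoting names.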

How the data were processed

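Small RNA of vesicles was sequenced in 14 libraries, 7 per group, made with the QIAseq miRNA kit per the labels' protocols. The deposited values were raw counts per mature miRNA. The submitters' processing notes name R 4.1.2, edgeR, limma and GRCm39 (mm39). The aligner, the counting rule and the use of molecular identifiers are not given in the sources used here, so a count may be a read or a molecule. All rows and columns matched a label (0 unmatched), and 42 within-group library pairs differed by more than sampling noise (lowest chi-square per degree of freedom 5.57).

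Counts were fitted with edgeR 4.0.16 in R 4.3.3 (quasi-likelihood test, TMM scaling, filterByExpr with a minimum count of 10 and total of 15, treatment as only term, Benjamini-Hochberg adjustment over the 239 tested names, which held 99.4% of counts). Each standard error was the size of the log2 fold change over the square root of F. On simulated counts for this comparison (232 names tested), 19 of the 19 names that were changed 4-fold and passed the filter were called, and 0 unchanged ones. Changed names that the filter removed could not be called, and smaller changes were not simulated. Log2 CPM used a prior count of 2. Alternatives used DESeq2 1.42.0, limma 3.58.1, other scalings and filters, the replicate number as a block, the set of replicates as a term, each set alone, and each library left out. The described names and lists were chosen with earlier results of these data known. Named were all members, other strands of their hairpins, miR-449 names, calls and the 3 largest fold changes of each EMT list, the 3 closest names at r of at least 0.7, and markers.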

Additional observations from a re-analysis of the deposited data

Results flagged for a closer look

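Of 26 groups of 7 libraries examined, over the 10 names, their summed share, library totals and the ratio of miR-141-3p to miR-200c-3p, 3 had 1 library well outside the other 6, and 1.3 such groups would arise by chance. In both groups miR-34b-5p was such a case, since its only counts were 1 in DMSO replicate 4 (2.76 CPM) and 1 in 27HC replicate 6 (7.59 CPM), with all other libraries at 0. A name with counts in only 1 library of a group is always flagged by this rule, so the 1.3 does not apply to miR-34b-5p. The depth of DMSO replicate 3, 871189 counts, was far above the 400585 counts of the DMSO library that came next. Without DMSO replicate 3 the log2 fold changes were −0.13 for miR-200c-3p, 0.31 for miR-141-3p, 0.40 for miR-205-5p and 0.084 for miR-34a-5p, and 0 of these 4 were called by edgeR. The cause of its depth was not tested.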

How the results depend on the processing

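For 27HC against DMSO the 30 calls became 12 in replicates 5 to 7 alone and 42 in replicates 1 to 4 alone, 21 (without 27HC replicate 3) to 34 (without DMSO replicate 7) with 1 library left out, and 23 to 39 under the other alternatives. None of these fits called miR-200c-3p, miR-141-3p, miR-205-5p or miR-34a-5p where it was tested. With 1 library left out, the log2 fold change ran from −0.48 to −0.12 for miR-200c-3p, from 0.15 to 0.40 for miR-141-3p, from 0.28 (without 27HC replicate 6) to 0.82 (without DMSO replicate 5) for miR-205-5p and from 0.037 to 0.15 for miR-34a-5p. Over all alternatives the lowest adjusted p-values were 0.325, 0.446, 0.392 and 0.511 in that order. Without the filter miR-34a-5p turned to −0.014, in a fit whose median over all names was −0.19. A mean count of at least 100 left only miR-34a-5p of the 4 to test.

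The contrast of 27HC effects, replicates 5 to 7 minus replicates 1 to 4, whose alternatives were chosen after seeing the data, had 0 calls, and 9 without the filter. It turned to 0.16 for miR-205-5p with limma-voom and to 0.14 for miR-34a-5p without the filter, and the cause was not tested. With the replicate number as a block there were 37 calls, which held all 30, and the log2 fold changes were −0.31 for miR-200c-3p, 0.28 for miR-141-3p, 0.53 for miR-205-5p and 0.054 for miR-34a-5p, none called. Libraries with the same number had correlations of 0.069 to 0.60, and 3 of 7 DMSO libraries correlated best with their own number. Those correlations include the split of replicate numbers. With the mean of each replicate set removed, they ran from −0.11 (replicate 4) to 0.29 (replicate 5). The labels do not say what a shared number pairs, so the numbers were not taken as pairs. Counts under 41.2 CPM limit what can be said of the 6 names that were not tested.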
